A study of Homo sapiens with 4 samples.

Results

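The genes described here are the kinesins, the genes named CENP for centromere protein, and 14 genes of the kinetochore, the spindle checkpoint and the mitotic spindle. Members were chosen by gene symbol, though with earlier results of these data known, and 73 of the 28285 gene rows matched. RNA sequencing was done on cells derived from H1, a human embryonic stem cell line, that carried an eGFP (enhanced green fluorescent protein) knock-in at GATA2. The product of GATA2 is a DNA-binding factor that early blood progenitors need. All cells had CD34 and CD31, surface proteins of endothelium and blood progenitors, and lacked CD43, a blood cell protein. The GFP-positive group had eGFP and its cell type is hemogenic endothelium, which gives rise to blood cells. The GFP-negative group lacked eGFP and its cell type is endothelial cells, although the source name of all samples is hemogenic endothelium. Both groups thus shared the knock-in, these surface proteins and Cre, which every title names without a role. Each group had 2 libraries. The labels give neither the day of differentiation nor the origin of the replicates, which may not be separate cultures. The p-values therefore reflect only how far these libraries spread, which may be technical.

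Kinesins are motor proteins that use ATP to move along microtubules or to shorten them. Some act when cells divide: they push the spindle poles apart, align chromosomes and bundle the microtubules at which daughter cells separate. Others carry vesicles, organelles or ciliary cargo in cells at any stage. Chromosomes hold on to the spindle through the kinetochore. Its inner layer of CENP proteins sits on centromeric chromatin marked by the histone variant CENP-A, and its outer layer holds the NDC80 complex, which grips microtubules. The spindle checkpoint delays the separation of chromosomes until all of them are attached. Many of these genes are transcribed mainly in the G2 phase and in mitosis, so in bulk RNA their level can depend on how many cells are in those phases. In bulk samples, fewer cells of a type and less RNA per cell cannot be told apart.

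Transcription of many genes of mitosis is controlled through a short promoter element near the start of transcription, the cell cycle genes homology region (CHR), often with CCAAT boxes upstream of it. The CHR is bound by the DREAM complex in resting cells and by complexes with MYBL2 and FOXM1 in dividing cells. RefSeq promoter windows on GRCh38.p14, from 250 bases before to 50 bases after a start, were found for 57 of the 73 members. They were searched on both strands for the CHR letters TTTGAA or TTCGAA and for CCAAT. The stretches of 30 bases below surround CHR matches of members that act in division, read along the gene's strand. They are shown because PRC1, KIF23 and SPC25 were among the members with the clearest differences between the fractions, and the other 3 belong to the same group. Capitals mark the CHR letters.
PRC1: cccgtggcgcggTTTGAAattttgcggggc
KIF23: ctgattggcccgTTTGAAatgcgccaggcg
PLK1: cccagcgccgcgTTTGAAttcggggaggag
SPC25: aagtgcactaggTTTGAAatcggaaagttg
KIF18A: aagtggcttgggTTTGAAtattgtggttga
BUB1B: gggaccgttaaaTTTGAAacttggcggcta
They lie at chr15:90994538-90994567 on the minus strand for PRC1, chr15:69414282-69414311 on the plus strand for KIF23, and chr16:23678848-23678877 on the plus strand for PLK1. Those of SPC25 (chr2:168890416-168890445) and KIF18A (chr11:28108149-28108178) are on the minus strand, and that of BUB1B (chr15:40161034-40161063) is on the plus strand.

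Longer stretches of 120 bases, ending at the base before the start, compare a pair of mitotic kinesins with a pair of kinesins that lay lower in GFP-positive cells. Capitals mark CHR letters and CCAAT boxes on either strand, so that ATTGG is CCAAT and TTCAAA is TTTGAA on the other strand.
KIF4A: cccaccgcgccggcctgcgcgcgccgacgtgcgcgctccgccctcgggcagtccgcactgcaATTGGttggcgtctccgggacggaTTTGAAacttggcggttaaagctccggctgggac
KIF11: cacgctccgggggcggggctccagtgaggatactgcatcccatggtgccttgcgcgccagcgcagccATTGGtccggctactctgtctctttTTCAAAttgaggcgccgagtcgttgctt
KIF1C: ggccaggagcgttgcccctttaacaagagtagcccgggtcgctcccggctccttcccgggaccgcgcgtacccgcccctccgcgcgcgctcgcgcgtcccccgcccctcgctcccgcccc
KIF26A: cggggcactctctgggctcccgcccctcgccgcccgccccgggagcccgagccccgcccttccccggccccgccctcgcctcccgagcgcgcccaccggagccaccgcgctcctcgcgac
All are on the plus strand, at chrX:70289984-70290103 for KIF4A, chr10:92593010-92593129 for KIF11, chr17:4997830-4997949 for KIF1C and chr14:104138467-104138586 for KIF26A. KIF4A and KIF11 each have a CCAAT box followed by a CHR match closer to the start. KIF1C and KIF26A have neither set of letters in these stretches. These pairs do not stand for all members. KIF5B, which lay lower in GFP-positive cells, had a CHR match in its window, and KIF20A, which lay higher, had none.

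A CHR match was common among members that act in cell division and rare among the other members. The cell division members are the mitotic kinesins, inner centromere proteins, NDC80 complex, checkpoint genes, mitotic kinases and spindle assembly factors, CENPE and CENPF. Of the 36 that had a window, 24 (66.7%) held a CHR match, against 2 of the 21 other members (9.52%) and 19.5% of the 27305 genes in the promoter table. A CCAAT box was found for 25 of the 36 (69.4%), 7 of the 21 (33.3%) and 39.7% of all genes. Both were present in a window for 19 of the 36 (52.8%), against 7.85% of all genes. Of the 28 CHR matches in cell division members, 26 began between 100 bases before and 50 bases after the start. A site in overlapping windows counts in each, as for KIF22, where it lies 27 and 244 bases before the starts. Positions were not counted over all genes. Mitotic kinesins had a match in 11 of 14 genes, the NDC80 complex in 3 of 4, and transport kinesins in 1 of 12, KIF5B. A match describes letters and does not show a bound site.

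**Figure D1:**
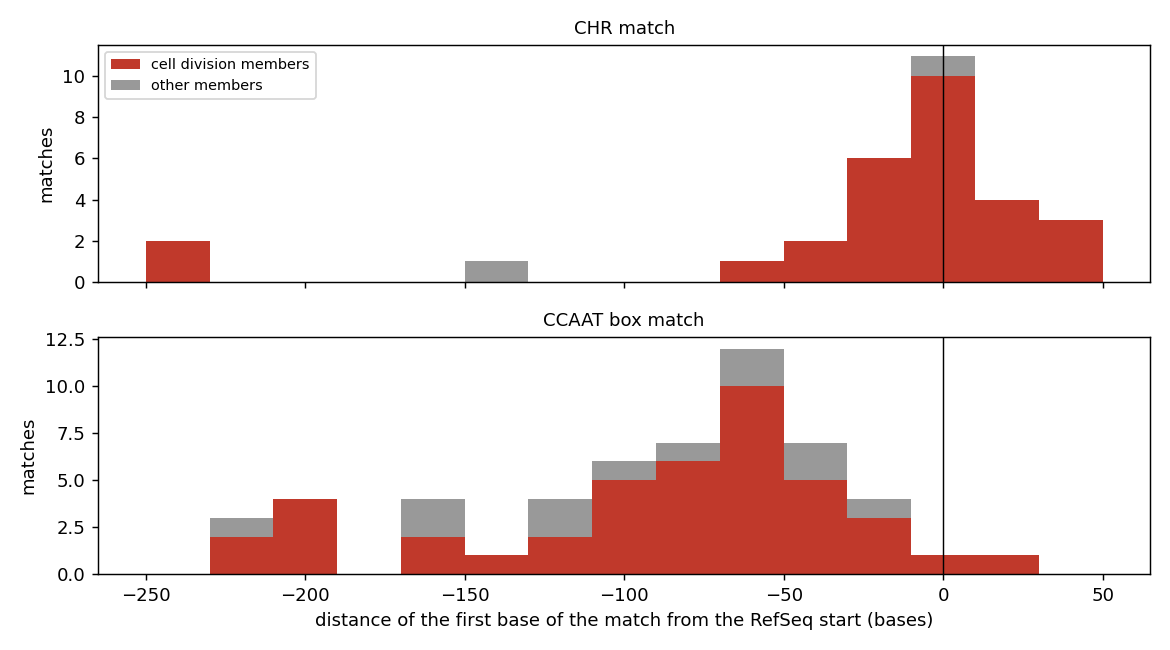
Distance of CHR and CCAAT matches from the RefSeq start (x axis, bases) against the number of matches (y axis), for cell division members (red) and the other members (grey). CHR matches of cell division members gather around the start, 26 of 28 of them from 100 bases before it. CCAAT matches lie mostly upstream, as does most of each window. A site in overlapping windows counts in each.

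Levels are given as TPM, a length-corrected share of all transcripts that allows genes to be compared. Read totals cannot be had from it. In the 4 libraries 14730 to 15109 genes reached 1 TPM. GATA2, which carries the reporter, stood at 302 and 385 TPM in GFP-positive libraries and 80.2 and 87.3 TPM in GFP-negative libraries (log2 fold change 2.01 ± 0.17, SE; limma adjusted p = 0.0316). Both fractions expressed endothelial genes such as CDH5, which encodes VE-cadherin, at 329 and 314 TPM in GFP-positive and 767 and 623 TPM in GFP-negative libraries. The 12 endothelial markers all had log2 fold changes below 0 and an unadjusted limma p under 0.05, against 7.38% of all genes lower. Of the 12, 1 passed the test (PLVAP), and their summed levels were 3248 to 3427 TPM against 5759 to 6829 TPM. Of 12 measured blood cell markers, 10 had log2 fold changes above 0 and 2 passed (HBG2 and MYB). At an unadjusted limma p under 0.05 there were 8, all higher, against 6.69% of all genes higher. The list summed to 355 to 473 TPM against 91.3 to 95.8 TPM. MPO, a myeloid marker, was listed at 0 in 3 of the 4 libraries, and SPN, the gene of CD43, had 10.2 to 16.9 TPM in GFP-positive and 9.66 to 11.1 TPM in GFP-negative libraries. Of 11 mesenchymal markers, 9 had log2 fold changes above 0, 3 had an unadjusted p under 0.05 and 0 passed (limma). Their summed levels were 1836 to 1870 TPM against 986 to 1220 TPM. Of 6 measured pluripotency markers, 3 had log2 fold changes above 0 and 0 passed (limma; 2 at an unadjusted p under 0.05, 1 in each direction), and the list summed to 582 to 710 TPM against 474 to 502 TPM, most of it LIN28A and DNMT3B. POU5F1, a defining pluripotency factor, had 0.93 and 0.030 TPM in GFP-positive and 9.68 and 5.88 TPM in GFP-negative libraries (limma unadjusted p = 0.00369, adjusted p = 0.131). These markers move with the same contrast as the members described below, and their part in those differences was not tested.

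Of the 73 members, 66 reached 1 TPM in 2 or more of the 4 libraries and were tested, none of them through libraries of only 1 group. The comparison asked how cells with and without the reporter differ, and it was fitted with limma on log2(TPM + 1) over 15425 genes. No member passed a Benjamini-Hochberg adjusted p of 0.05 (0 of 66, against 0.447% of all genes tested, 0.123% higher and 0.324% lower), and the lowest adjusted p was 0.111. At an unadjusted p under 0.05 there were 10 of 66 members, 5 higher and 5 lower in GFP-positive cells, a share (15.2%) near that of all genes (14.1%, with 6.69% higher and 7.38% lower). Libraries of the groups did not overlap for 31 of 66 members (47.0%), against 44.3% of all genes. Direction was less even. Log2 fold changes were above 0 for 47 of 66 members (71.2%), against 51.8% of all genes.

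Of the 41 tested cell division members, 34 (82.9%) had a log2 fold change above 0, with a median of 0.34, against a median of 0.02 over all genes tested. The values ran from -0.53 for CENPQ to 0.75 for KIF23. GFP-positive libraries lay wholly above GFP-negative libraries for 15 of the 41 (36.6%, against 22.8% of all genes), and wholly below for 4 (9.76%, against 21.5%). The other 25 tested members were divided, with 13 above 0 and a median of 0.07. Summed over the 43 cell division members, the level was 3081 and 2653 TPM in GFP-positive libraries and 2570 and 2352 TPM in GFP-negative libraries. Without KIFC1, which alone supplied 637 to 693 TPM, the sums were 2407 and 1960 against 1932 and 1659 TPM. The lowest GFP-positive sum thus lay just above the highest GFP-negative sum in both cases.

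The spread within the GFP-positive fraction was as large as the difference between fractions. Among the 41 tested cell division members, the median absolute gap on the log2(TPM + 1) scale was 0.43 within the GFP-positive fraction and 0.21 within the GFP-negative fraction, while the median absolute log2 fold change was 0.37. Over all genes tested the same medians were 0.36, 0.31 and 0.33, so the size of the spread was not particular to these members. Its shared direction was. For the 41, the median of replicate 1 minus replicate 2 was 0.42 in GFP-positive and 0.17 in GFP-negative libraries. Over all genes tested these medians were 0 and 0.0027. GFP-positive replicate 1 was above replicate 2 for 35 of the 41, against 7682 of the 15425 genes tested. GFP-negative replicate 1 was above replicate 2 for 29 of the 41, against 7745 of the 15425. Replicate 1 was the higher in both fractions for 27 of the 41 (65.9%), against 27.0% of all genes tested. PLK1, a kinase that drives mitotic entry and spindle assembly, illustrates both differences, at 157 and 105 TPM in GFP-positive and 121 and 65.9 TPM in GFP-negative libraries. Here the lower GFP-positive library fell below the higher GFP-negative library. The median of the cell division members moved with the libraries used. Leaving out GFP-positive replicate 1 gave 0.079 and leaving out GFP-negative replicate 2 gave 0.16, each with 28 of 41 above 0. It was 0.60 when GFP-positive replicate 2 was left out, with 35 of 41 above 0, and 0.37 when GFP-negative replicate 1 was. With upper quartile scaling, 32 of 41 were above 0.

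Members with and without a CHR match differed in the same comparison. Of the 23 tested cell division members with a match, 22 had a log2 fold change above 0 and the median was 0.40. Of the 11 that had a window but no match, 5 were above 0 and the median was -0.01. The medians therefore differed by 0.40, while over all tested genes with a window they were 0.02 with a match and 0.03 without. Without GFP-positive replicate 1 the difference in medians was 0.026, with 17 of 23 and 6 of 11 members above 0, so it rests on that library. With the other libraries left out in turn the difference was 0.36 to 0.69. Inner centromere genes had a CHR match in 4 of 10 with a window and a median log2 fold change of 0.08. Mitotic kinesins had a match in 11 of 14 and a median of 0.37. The split by match thus overlaps with that by role, and the contributions of match and role were not separated. The split by match was chosen after the values were seen and was not tested.

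**Figure D2:**
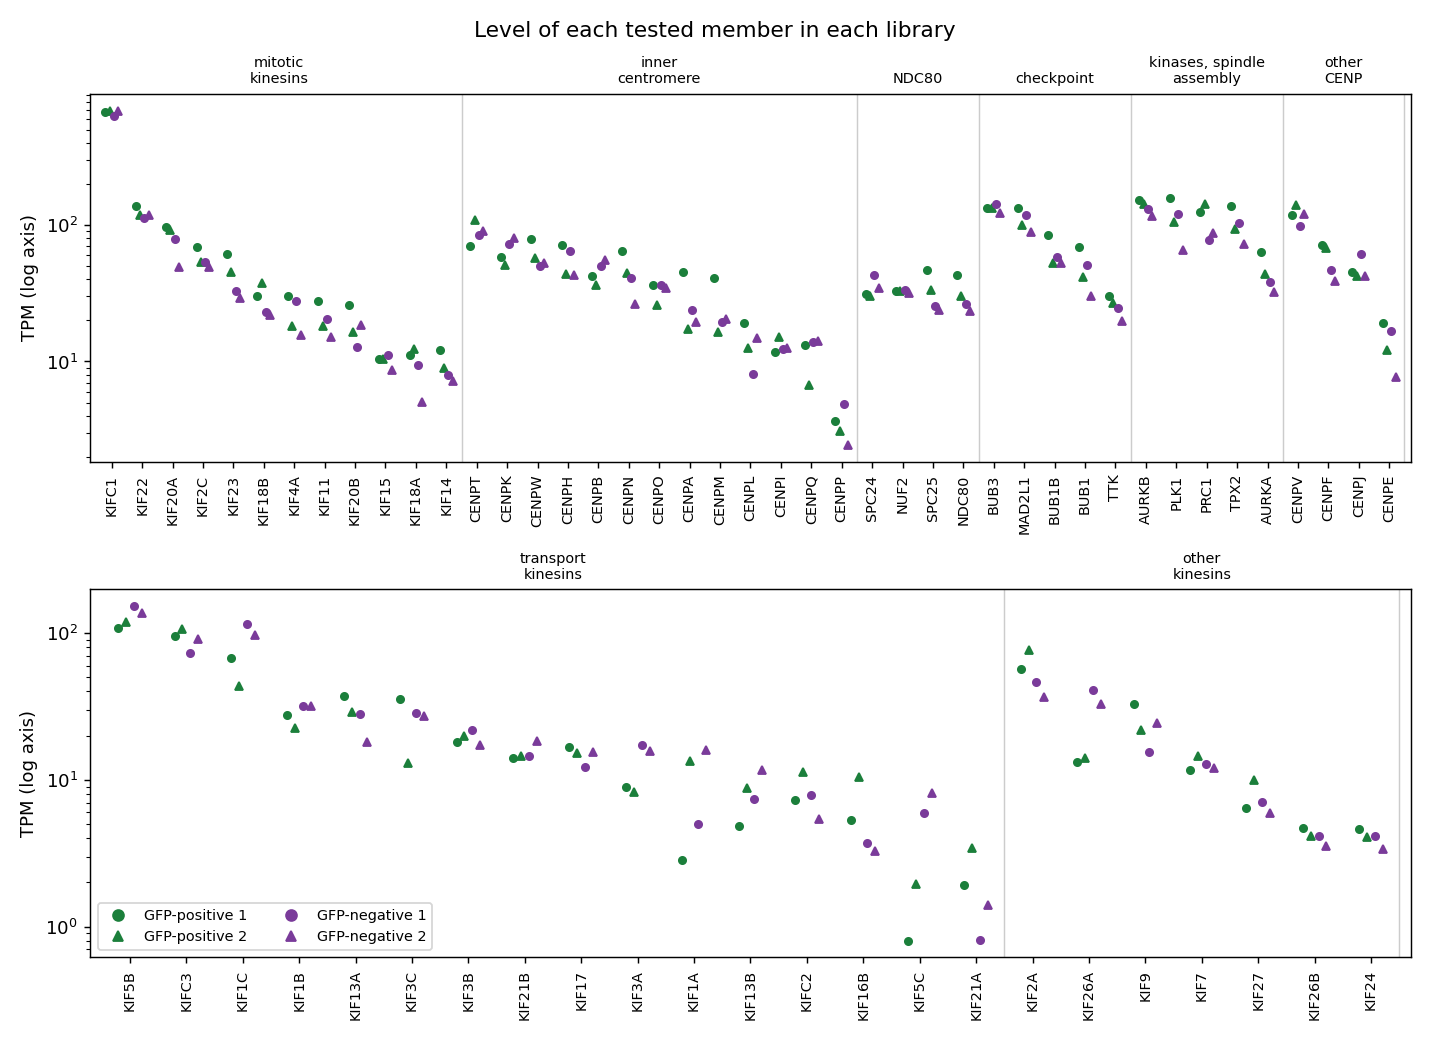
Level of each tested member (TPM, log axis) in the GFP-positive (green) and GFP-negative (purple) libraries, with circles for replicate 1 and triangles for replicate 2, grouped by role. KIFC1 stands apart at 637 to 693 TPM in all libraries, and for most members the colours lie within a narrow band.

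Mitotic kinesins had 14 members, of which 12 were tested and all 12 had a log2 fold change above 0, from 0.04 for KIFC1 to 0.75 for KIF23, with a median of 0.37. That median was 0.072 when GFP-positive replicate 1 was dropped and 0.23 when GFP-negative replicate 2 was dropped. It became 0.56 with GFP-positive replicate 2 left out. KIF23, the motor subunit of centralspindlin, bundles microtubules at the midzone where the cell divides (ENSG00000137807; GENCODE v29 on GRCh38, chromosome 15, 69414246 to 69448427, plus strand, protein-coding). It had 61.5 and 45.5 TPM in GFP-positive libraries and 33.0 and 29.3 TPM in GFP-negative libraries. Both GFP-positive values lay above both GFP-negative values, by 1.72-fold in the means. The log2 fold change was 0.75 ± 0.24 (SE; limma unadjusted p = 0.0209, adjusted p = 0.256) and did not pass. Its centralspindlin partner RACGAP1 had 50.5 and 73.4 TPM against 45.0 and 26.2 TPM (limma adjusted p = 0.351), and KIF20A, a midzone motor that carries the passenger complex, had 97.3 and 92.8 TPM against 78.6 and 49.5 TPM.

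KIFC1, a minus-end-directed motor that crosslinks spindle microtubules and gathers extra centrosomes, was by far the most abundant kinesin. It had 674 and 693 TPM in GFP-positive libraries and 637 and 693 TPM in GFP-negative libraries, rank 165 among the 15425 tested genes and 5.53 times the mean of KIF22, the next mitotic kinesin. The libraries overlapped, and the log2 fold change of 0.04 had a 95% interval from -0.25 to 0.33. KIF22, a chromosome-arm motor, had 138 and 119 against 112 and 118 TPM. KIF2C, which removes tubulin from microtubule ends at centromeres, had 69.5 and 53.4 against 53.6 and 49.4 TPM. The fractions overlapped for KIF2C, and for KIF22 they were separated by less than the gap between the GFP-positive libraries.

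Other mitotic kinesins were less abundant. KIF11, the motor that separates spindle poles, had 27.8 and 18.1 TPM against 20.5 and 15.1 TPM, and KIF4A, a chromosome-bound motor, 30.1 and 18.1 against 27.7 and 15.7 TPM. In both genes replicate 1 of each fraction lay above replicate 2, and the fractions overlapped. KIF18B and KIF18A, which limit microtubule growth, did not overlap: KIF18B had 30.4 and 37.8 against 23.0 and 21.9 TPM, and KIF18A had 11.3 and 12.4 against 9.42 and 5.02 TPM. KIF14, which takes part in cytokinesis, had 12.04 and 8.90 against 7.95 and 7.20 TPM. KIF15, a spindle motor that can back up KIF11, had 10.4 and 10.4 against 11.2 and 8.69 TPM, and KIF20B 25.9 and 16.3 against 12.7 and 18.6 TPM. KIF2B was listed at 0 in all libraries, and KIF4B, an intronless copy of KIF4A, was listed at 0 in 3 libraries and at 0.24 TPM in GFP-positive replicate 2. Reads of such near-identical copies may have been divided between them, so levels of KIF4B are uncertain.

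Inner centromere genes numbered 13, all tested, and were mixed, with 7 above 0, 6 below and a median log2 fold change of 0.08. The median turned to -0.27 without GFP-positive replicate 1. The most abundant was CENPT, which links centromeric DNA to the NDC80 complex, at 69.8 and 110 TPM in GFP-positive and 85.2 and 90.9 TPM in GFP-negative libraries, with full overlap. Its partner CENPW had 79.0 and 57.4 against 50.6 and 52.9 TPM. CENPA, the centromeric histone itself, had 45.4 and 17.3 against 23.9 and 19.6 TPM, so that its 2 GFP-positive libraries lay on either side of both GFP-negative ones. CENPM had the same pattern, at 41.0 and 16.3 against 19.6 and 20.4 TPM.

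CENPK was the inner centromere gene with the lowest p, and it lay lower in GFP-positive cells (ENSG00000123219; chromosome 5, 65517766 to 65563171, minus strand). It had 58.0 and 50.6 TPM in GFP-positive libraries and 73.3 and 80.8 TPM in GFP-negative libraries, without overlap. The log2 fold change of -0.50 ± 0.19 (SE) did not pass (limma unadjusted p = 0.0366, adjusted p = 0.320). CENPH and CENPI, which form a complex with it, had 72.2 and 43.6 against 64.5 and 43.2 TPM, and 11.7 and 15.0 against 12.3 and 12.7 TPM, and both overlapped. CENPQ had the lowest log2 fold change of the group (-0.53), at 13.3 and 6.67 against 13.9 and 14.3 TPM. It was -0.080 when GFP-positive replicate 2 was left out and -0.97 without GFP-positive replicate 1. CENPB, which binds a short motif in centromeric satellite DNA, had 42.4 and 36.2 against 50.3 and 55.4 TPM. CENPN, which reads CENP-A nucleosomes, had the highest log2 fold change (0.69 ± 0.31; limma adjusted p = 0.394), at 64.6 and 44.6 against 41.1 and 26.2 TPM. It was 0.43 without GFP-positive replicate 1 and 0.38 when GFP-negative replicate 2 was left out. Its partner CENPL had 19.1 and 12.5 against 8.09 and 14.8 TPM and overlapped. Levels of CENPO were 36.2 and 26.0 against 36.5 and 34.7 TPM, and CENPP stayed between 2.43 and 4.87 TPM.

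The 4 subunits of the NDC80 complex, present in equal numbers in the assembled complex, had similar levels, between 23.5 and 47.2 TPM in all libraries. In GFP-negative cells SPC24 was the highest, at 43.1 and 34.5 TPM, while SPC25 had 25.3 and 23.7 TPM and NDC80 had 26.3 and 23.5 TPM. In GFP-positive cells SPC25 had 47.2 and 33.7 TPM, NDC80 had 43.3 and 30.2 TPM, and SPC24 had 31.2 and 30.4 TPM. SPC25 and NDC80 lay higher and SPC24 lower in GFP-positive cells, each without overlap. NUF2 was level, at 32.8 and 32.6 against 33.5 and 31.9 TPM. For SPC25 (ENSG00000152253; chromosome 2, 168834132 to 168913371, minus strand) the log2 fold change was 0.68 ± 0.26 (SE; limma unadjusted p = 0.0411, adjusted p = 0.331). For SPC24 it was -0.31 ± 0.23 (limma adjusted p = 0.625). Leaving out GFP-positive replicate 1 gave 0.44 for SPC25, and leaving out GFP-negative replicate 1 gave -0.16 for SPC24.

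Checkpoint genes had log2 fold changes from 0.0079 to 0.44, all 5 above 0, and none had an unadjusted p under 0.05. BUB3, an adaptor with further roles outside mitosis, had the highest mean of the group and was level, at 134 and 133 TPM against 142 and 123 TPM. Its sign turned with upper quartile scaling (-0.025). MAD2L1, which inhibits the activator of the anaphase-promoting complex, had 134 and 100 against 118 and 89.6 TPM. BUB1, a kinase that recruits the checkpoint to kinetochores, had 69.5 and 41.6 against 50.95 and 30.2 TPM, a difference of 0.44 ± 0.35 (SE) on the log2 scale with an adjusted limma p of 0.652. It was 0.079 with GFP-positive replicate 1 left out, 0.077 with GFP-negative replicate 2 left out and 0.81 with either of the other libraries left out. BUB1B had 85.1 and 52.6 against 58.7 and 53.0 TPM. TTK, the kinase that starts checkpoint signalling, had 30.3 and 26.7 against 24.9 and 19.9 TPM and was the only gene of the 5 without overlap. For the other 4 the difference between replicates was as large as that between fractions.

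The mitotic kinases and spindle assembly factors had the highest median of any group, 0.52, with all 5 above 0, and the median was 0.16 without GFP-negative replicate 2 and 0.23 when GFP-positive replicate 1 was left out. PRC1, which crosslinks antiparallel microtubules in the midzone, had the lowest p of all cell division members (ENSG00000198901; chromosome 15, 90966038 to 90995629, minus strand). It had 126 and 143 TPM in GFP-positive libraries and 77.7 and 87.0 TPM in GFP-negative libraries, a 1.63-fold difference in the means without overlap. The log2 fold change was 0.70 ± 0.17 (SE; limma unadjusted p = 0.00577, adjusted p = 0.159), and it lay between 0.60 and 0.79 with each library left out in turn. AURKB, the kinase of the chromosomal passenger complex, had 153 and 142 against 132 and 117 TPM, without overlap (0.25 ± 0.15; limma adjusted p = 0.546). It was 0.16 when GFP-negative replicate 2 was left out. AURKA, which matures spindle poles, had 63.6 and 43.7 against 38.0 and 32.5 TPM. Its activator TPX2 had 138 and 93.3 against 103 and 73.1 TPM and overlapped, as PLK1 did.

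Of the other genes named CENP, CENPF and CENPE were counted among the cell division members, and CENPJ and CENPV were not. CENPF, a large protein that gathers at kinetochores and is used as a marker of G2 and mitosis, had 72.1 and 67.9 TPM in GFP-positive libraries and 46.6 and 39.3 TPM in GFP-negative libraries (ENSG00000117724; chromosome 1, 214603195 to 214664588, plus strand). The libraries did not overlap, and the log2 fold change of 0.70 ± 0.20 (SE) did not pass (limma unadjusted p = 0.0120, adjusted p = 0.206). CENPE, itself a kinesin that moves chromosomes to the spindle equator, had 19.1 and 12.1 against 16.8 and 7.75 TPM and overlapped. CENPJ, a centriole protein, had 45.6 and 42.4 against 61.0 and 42.7 TPM, with a log2 fold change of -0.21 that turned to 0.043 without GFP-negative replicate 1. CENPV had 119 and 140 against 98.2 and 121 TPM. Its log2 fold change of 0.24 was 0.12 when GFP-positive replicate 2 was left out and 0.095 when GFP-negative replicate 1 was.

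**Figure D3:**
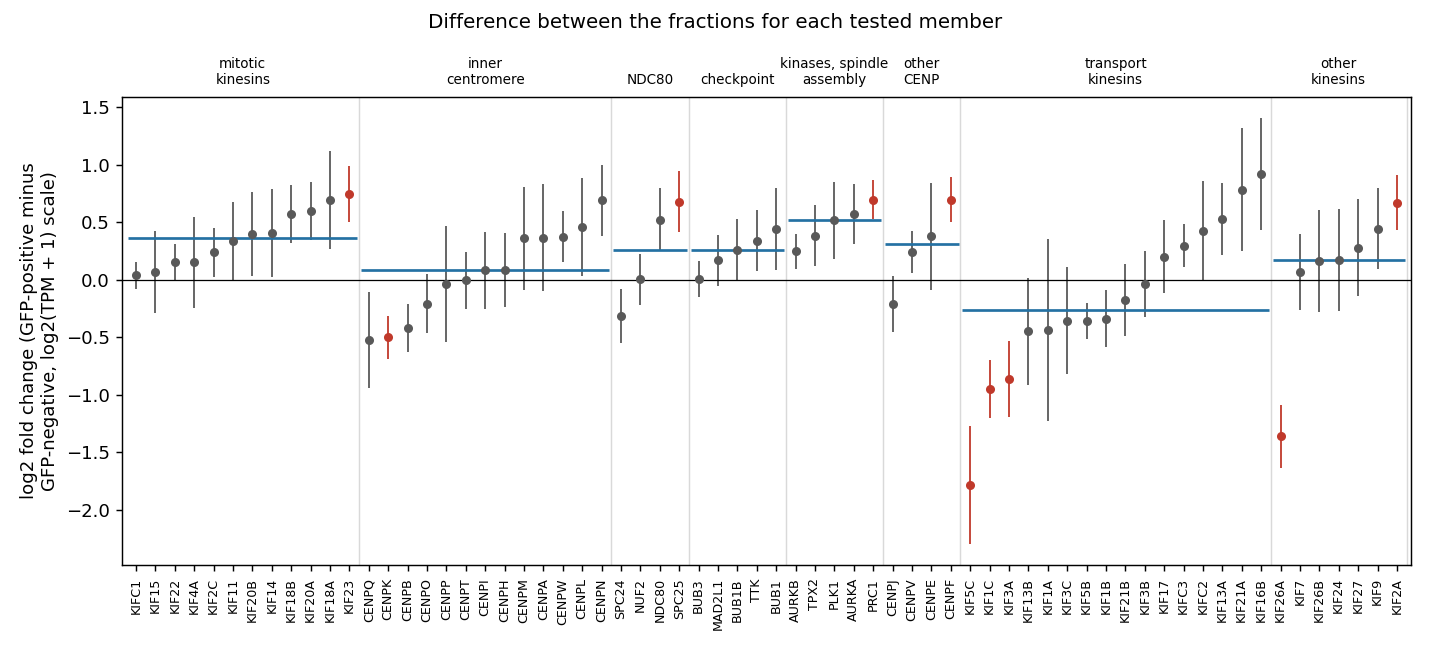
Log2 fold change of each tested member (GFP-positive minus GFP-negative, log2(TPM + 1) scale), with bars of 1 SE from limma, blue lines at group medians and red points for an unadjusted p under 0.05. Mitotic kinesins, checkpoint genes and mitotic kinases lie above 0, and transport kinesins spread from -1.79 to 0.92.

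Transport kinesins had 17 members, of which 16 were tested, 6 above 0 and 10 below. Their median log2 fold change was -0.26, and it was -0.025 with GFP-positive replicate 1 left out and -0.085 with GFP-negative replicate 2 left out. At an unadjusted p under 0.05 there were 3 of 16, all lower in GFP-positive cells, against 7.38% of all genes lower at that threshold. KIF1C, a fast plus-end-directed motor of vesicles and RNA, was among the most abundant (ENSG00000129250; chromosome 17, 4997948 to 5028401, plus strand). It had 67.6 and 43.9 TPM in GFP-positive libraries and 116 and 97.1 TPM in GFP-negative libraries. GFP-negative cells had 1.91 times the GFP-positive mean, and the log2 fold change was -0.95 ± 0.25 (SE; limma unadjusted p = 0.00915, adjusted p = 0.188).

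KIF5 genes encode the heavy chains of conventional kinesin. KIF5B, the form found in most tissues, was the most abundant transport kinesin, at 108 and 119 TPM in GFP-positive and 153 and 138 TPM in GFP-negative libraries, without overlap (-0.36 ± 0.16; limma adjusted p = 0.387). KIF5C, a form best known from neurons, had 0.80 and 1.95 TPM in GFP-positive and 5.90 and 8.16 TPM in GFP-negative libraries (ENSG00000168280; chromosome 2, 148875250 to 149026759, plus strand). Its log2 fold change of -1.79 ± 0.51 (SE) was the lowest of all tested members, and it did not pass (limma unadjusted p = 0.0127, adjusted p = 0.210). KIF5A, another neuronal form, was listed at 0 in 3 libraries and at 0.36 TPM in GFP-positive replicate 1. All 3 heavy chain genes resemble each other in sequence, so reads may have been divided between them.

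KIF3A and KIF3B form the motor of heterotrimeric kinesin-2, which carries cargo into cilia, together with the adaptor KIFAP3. KIF3A (ENSG00000131437; chromosome 5, 132692628 to 132737638, minus strand) had 9 and 8.25 TPM in GFP-positive libraries and 17.4 and 15.7 TPM in GFP-negative libraries, without overlap. Its log2 fold change was -0.86 ± 0.33 (SE; limma unadjusted p = 0.0395, adjusted p = 0.327). KIF3B was level, at 18.03 and 19.8 against 21.7 and 17.3 TPM. KIFAP3, no member by the rule, had 22.5 and 11.5 against 29.5 and 17.7 TPM and overlapped. KIF3C, an alternative partner of KIF3A, had 35.4 and 13.1 against 28.6 and 27.4 TPM. KIF17, a homodimeric kinesin-2, had 16.8 and 15.2 against 12.2 and 15.4 TPM.

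The remaining transport kinesins went both ways. KIF1B, a motor of mitochondria and synaptic vesicle precursors, had 27.6 and 22.5 against 31.7 and 31.9 TPM. KIF13A, an endosome motor, had 37.5 and 28.9 against 28.0 and 18.03 TPM, and KIF13B 4.83 and 8.75 against 7.36 and 11.7 TPM. KIF16B, a motor of early endosomes, had the highest log2 fold change of all members (0.92 ± 0.49; limma adjusted p = 0.466), at 5.30 and 10.5 against 3.71 and 3.27 TPM. Its GFP-positive libraries differed from each other by more than the lower one differed from GFP-negative cells, and the value was 0.49 when GFP-positive replicate 2 was left out. KIFC3, a minus-end-directed motor, had 95.5 and 106 against 73.5 and 91.5 TPM, and KIFC2 7.25 and 11.4 against 7.93 and 5.38 TPM. KIF21B had 14.2 and 14.4 against 14.5 and 18.3 TPM, and KIF21A 1.92 and 3.42 against 0.81 and 1.41 TPM. KIF1A, an axonal motor, had 2.84 and 13.4 against 4.99 and 15.9 TPM, so that replicates of the same fraction differed far more than the fractions did.

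KIF26A, an atypical kinesin that binds microtubules without ATP-driven movement, had the lowest p of all 66 tested members (ENSG00000066735; chromosome 14, 104138723 to 104180894, plus strand). It had 13.2 and 14.2 TPM in GFP-positive libraries and 41.2 and 32.8 TPM in GFP-negative libraries, 2.70 times as much in the means. The groups were far apart relative to their spread, with SDs of 0.686 and 5.90 TPM (n = 2 each). The log2 fold change of -1.36 ± 0.27 (SE; 95% interval -2.03 to -0.70) did not pass (limma unadjusted p = 0.00234, adjusted p = 0.111). It lay between -1.52 and -1.20 with each library left out. The related KIF26B had 4.71 and 4.13 against 4.16 and 3.54 TPM, with a log2 fold change of 0.16 ± 0.44.

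Other kinesins outside these groups included KIF2A, which shortens microtubules at spindle poles and in neurons. Despite its place at the spindle, it was not counted among the cell division members. KIF2A (ENSG00000068796; chromosome 5, 62306162 to 62537249, plus strand) had 57.1 and 76.3 TPM in GFP-positive libraries and 46.0 and 36.6 TPM in GFP-negative libraries, without overlap (0.67 ± 0.24, SE; limma unadjusted p = 0.0303, adjusted p = 0.295). The fractions overlapped for the next 3 genes: KIF7, a regulator of hedgehog signalling, had 11.7 and 14.6 against 12.8 and 12.1 TPM, KIF24 had 4.59 and 4.10 against 4.14 and 3.36 TPM, and KIF27 had 6.47 and 9.99 against 7.10 and 5.90 TPM. KIF9 had 32.8 and 21.7 against 15.4 and 24.3 TPM. KIF25 was listed at 0 in every library. KIF12 had 0.81 and 1.03 TPM in GFP-negative cells and was listed at 0 for both GFP-positive libraries, and KIF6 and KIF19 stayed at or below 1.45 TPM.

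**Figure D4:**
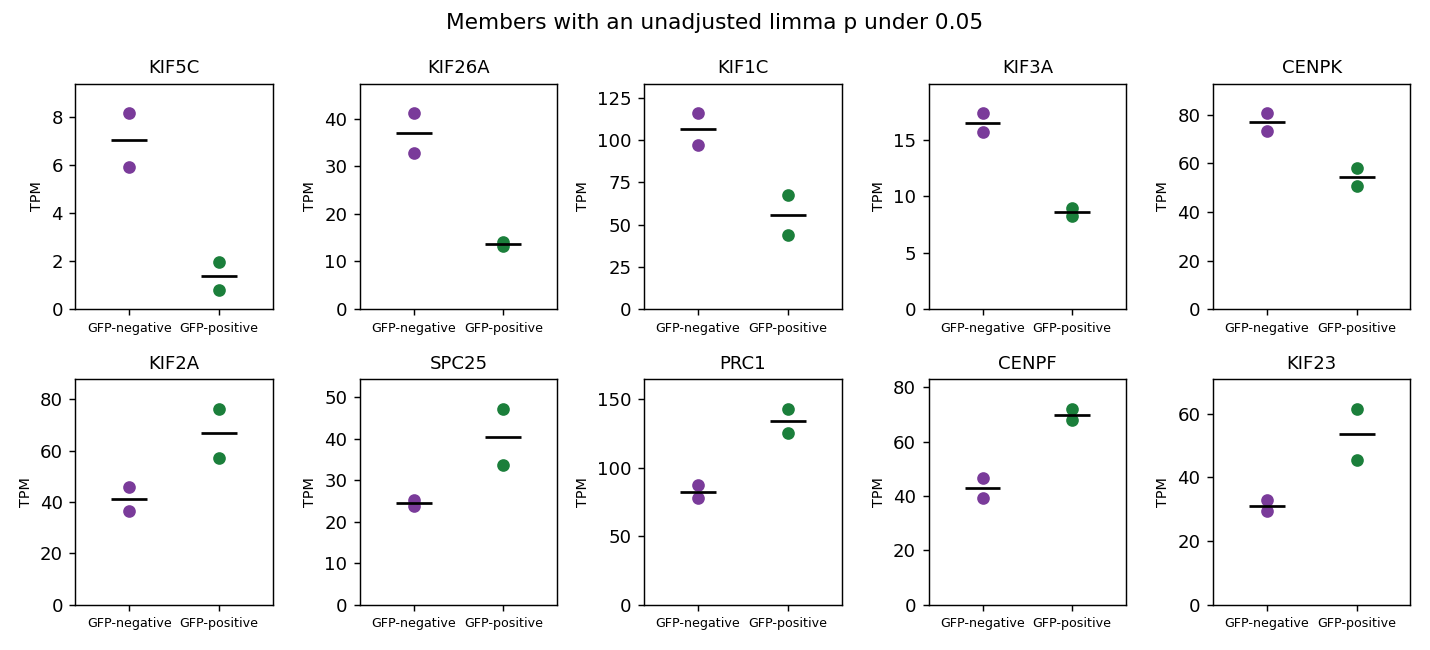
TPM by library (points) and mean (line) for the 10 members with an unadjusted limma p under 0.05, none of which passed after adjustment. KIF5C, KIF26A, KIF1C, KIF3A and CENPK lie lower in GFP-positive cells (green) than in GFP-negative cells (purple), and KIF2A, SPC25, PRC1, CENPF and KIF23 lie higher.

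Genes listed for mitosis that are no members were compared to see whether they leaned the same way. They include transcription regulators such as E2F4 and the kinesin-2 adaptor KIFAP3. Of 95 such genes, all tested, 0 passed (limma; 14 at an unadjusted p under 0.05, of which 11 were higher and 3 lower). That share of 14.7% is near the 14.1% of all genes tested. Log2 fold changes were above 0 for 70 of 95 (73.7%, against 51.8% of all genes) with a median of 0.23, which was 0.11 when GFP-positive replicate 1 was left out and 0.12 when GFP-negative replicate 2 was. Among kinetochore and passenger genes, 21 of 32 were above 0. INCENP, the scaffold of the passenger complex, had 69.0 and 49.8 against 37.1 and 37.3 TPM (limma unadjusted p = 0.0333, adjusted p = 0.306). SPDL1, which brings dynein to kinetochores, went the other way, with 66.0 and 49.6 against 82.6 and 101 TPM (limma unadjusted p = 0.0230, adjusted p = 0.266). Among spindle and cytokinesis genes, 27 of 33 were above 0. TACC3, a spindle microtubule protein, had 197 and 153 against 132 and 123 TPM (limma adjusted p = 0.342).

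Among genes of mitotic entry and exit, 22 of 30 were above 0, and 8 (26.7%) had an unadjusted p under 0.05, 7 of them higher, against 14.1% of all genes in either direction and 6.69% higher. UBE2C, the ubiquitin-conjugating enzyme of the anaphase-promoting complex, had 281 and 236 TPM in GFP-positive and 176 and 176 TPM in GFP-negative libraries (limma unadjusted p = 0.0104, adjusted p = 0.198). MYBL2, a transcription factor that acts through the CHR, had 265 and 356 against 155 and 222 TPM (limma unadjusted p = 0.0198, adjusted p = 0.253). FOXM1, its partner in mitotic transcription, had 85.8 and 72.2 against 80.9 and 65.2 TPM and overlapped. E2F4, a DNA-binding subunit of DREAM, had 121 and 139 against 196 and 165 TPM (limma unadjusted p = 0.0297, adjusted p = 0.293), and was the gene of the 8 that lay lower. MKI67, the common marker of cycling cells, had 60.5 and 55.1 against 50.2 and 41.6 TPM (limma adjusted p = 0.541).

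Genes of S phase leaned the other way. Of 28 tested, 5 were above 0 and 23 below, with a median log2 fold change of -0.21, which lay between -0.28 and -0.16 with each library left out. Libraries did not overlap for 12 of the 28, all 12 lower in GFP-positive cells (42.9%, against 21.5% of all genes). None passed (limma; 4 at an unadjusted p under 0.05, all lower, a share of 14.3% against 14.1% of all genes in either direction and 7.38% lower). MCM5, a subunit of the replicative helicase, had 128 and 150 TPM in GFP-positive and 224 and 231 TPM in GFP-negative libraries (-0.71 ± 0.15; limma unadjusted p = 0.00309, adjusted p = 0.120). PRIM1, a primase subunit, had 39.1 and 21.1 against 58.0 and 54.1 TPM (limma adjusted p = 0.278). The difference between the mitosis and S phase lists was not tested.

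**Figure D5:**
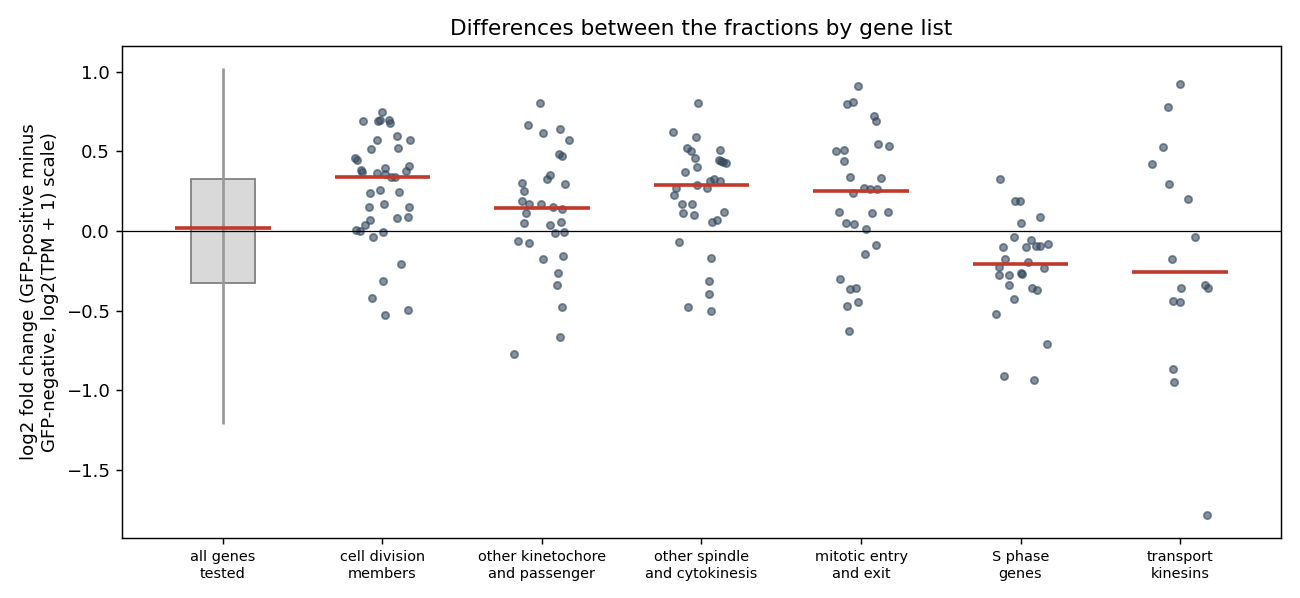
Log2 fold change (GFP-positive minus GFP-negative, log2(TPM + 1) scale) of each tested gene by list, with red lines at medians; for all genes the box spans the middle 50% and the line runs from the 5th to the 95th percentile. Cell division members and the other mitosis lists lie mostly above 0 and S phase genes mostly below, within the range of all genes.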

How the data were processed

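The authors deposited 1 table per library with a gene identifier, a symbol and a value. The header gives no unit. The values sum to 996324 to 997293 per library and the submitters' processing notes name RSEM, so they were taken as TPM. The notes also name Bowtie and the builds hg19 and mm10, without versions or roles; the annotation is not given in the sources used here. Per the labels, total RNA was isolated with Trizol, and an Illumina TruSeq kit was used for the libraries.

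Groups and replicate numbers came from titles. Limma 3.58.1 in R 4.3.3 (variance trend, two-sided, Benjamini-Hochberg over all genes tested) was fitted to log2(TPM + 1) for genes with at least 1 TPM in 2 of 4 libraries, all 4 libraries in the fit. This scale understates changes of low genes. Depth is unknown, so no counting error is given. Members and lists were chosen with earlier results of these data known. Named were, per role group, the most abundant member, the highest and lowest log2 fold change and any unadjusted p under 0.05; other members are given by their values, and per pathway list the 2 lowest p; CDH5, KIFAP3, FOXM1, E2F4, MKI67, the promoter stretches and the split by CHR match were chosen after their values were seen. Gene positions are from GENCODE v29 (all 73 members matched by identifier) and promoters from RefSeq on GRCh38.p14. Alternatives were a pseudocount of 0.1, no filter, a mean above 5 TPM, no trend, upper quartile scaling, a replicate block and each library left out.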

Additional observations from a re-analysis of the deposited data

How the results depend on the processing

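No member passed in any setting without a replicate block, where the lowest adjusted p of a member ran from 0.0676 to 0.321 (limma). Replicate numbers are shared between the fractions, but the labels do not say that a number marks a shared culture. Deviations of same-numbered libraries correlated at 0.0719 over all tested genes and 0.391 over the members. With the replicate block, limma called 596 of 15425 genes and 2 of 66 members, a share no higher than that of all genes. The 2 members were KIF1C (limma adjusted p = 0.0312) and KIF26A (limma adjusted p = 0.042). Against 69 genes called, limma called 0 with a pseudocount of 0.1, 0 without a filter and 0 without a variance trend (2101, 2230 and 2072 at an unadjusted p under 0.05), and 164 among genes averaging over 5 TPM. Leaving out 1 library gave 18 to 65 genes, 18 for GFP-negative replicate 1, and 0 members. Medians then ran from 0.079 to 0.60 for cell division members, -0.30 to -0.025 for transport kinesins, 0.11 to 0.33 for other mitosis genes and -0.27 to 0.063 for the inner centromere. Transport kinesins had -0.18 without a filter. Signs turned for 4 of 22 named members when 1 library was left out, with ranges of -0.096 to 0.11 for BUB3, -0.33 to 0.32 for CENPT, -0.46 to 0.043 for CENPJ and -0.021 to 0.10 for KIFC1. BUB3 had -0.025 with upper quartile scaling. The 10 members with an unadjusted p under 0.05 kept their sign in every setting that tested them. Libraries of the groups did not overlap for any of these 10, so leaving out a library could not turn their sign. KIF5C was not tested among genes averaging over 5 TPM. The causes were not tested.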
